A study of Mus musculus with 8 samples.

Results

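The mammalian circadian clock is a loop of transcription in which a few proteins switch their own genes on and off over the day. Its mRNAs were followed here in parvalbumin-expressing (PV+) interneurons, the fast-spiking inhibitory cells of the cortex, after 48 h of raised activity. The 10 core clock genes were chosen by name (Arntl, Clock, Per1, Per2, Per3, Cry1, Cry2, Nr1d1, Nr1d2 and Dbp) from the 45706 genes quantified, and all 10 were detected and tested. In this tissue and at this depth they barely differed between CNO-treated and vehicle-treated mice, while the immediate early gene Fos, read in the same libraries, was 3.82-fold higher with CNO (adjusted p = 0.0520 by edgeR's quasi-likelihood test). The clock genes Nr1d2 and Arntl did vary from sample to sample, together with how strongly PV+ interneuron markers stood out over pyramidal cell markers, as did Per3 in a relation that rested on 2 samples.

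All mice carried the alleles PvalbFlp/+ and Neurod6Cre/+. They received at postnatal day 1, in the primary somatosensory cortex (S1), an adeno-associated virus that makes an HA-tagged ribosomal protein (RPL10a) together with the myc-tagged receptor hM3Dq, which raises neuronal firing when its ligand CNO is given. The construct was driven by the neuronal hSyn promoter, needed Flp and was removed by Cre, so that cells with Flp from Pvalb made it unless they also carried Cre from Neurod6, a gene of pyramidal cells. Mice aged 42 to 70 days were given 5 injections of CNO at 1 mg/kg (the CNO group) or of vehicle (the VEH group) over 48 h, in the morning between 8 and 10 h and in the evening between 18 and 21 h. Ribosomes were then pulled down by the HA tag and their mRNA was sequenced. Each group had 4 samples, and each sample pooled S1 from 4 brains. Mice of both sexes were used in similar numbers across the study. Vehicle mice also carried hM3Dq, no group without hM3Dq received CNO in this experiment, and no whole-tissue RNA was analysed here. The day of virus injection and the age are those of the labels, and the study's methods give a somewhat wider range for the former and a slightly later start for the latter. The fifth injection was given in the morning of the experimental day, and the time from it to the dissection is not given in the sources used here.

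The estimated counts assigned to genes came to between 44064161 (VEH 2) and 49413273 (CNO 4) per sample. A level of 3 counts, taken as the lowest that can be read, corresponded to 0.0607 to 0.0681 CPM (counts scaled to a common library size). That limit reflects counting error alone, as PCR copies of a molecule are counted as separate reads. The clock genes lay far above it, with a lowest value of 17.2 CPM for Per1 in VEH 1. Single samples are given below in CPM after TMM normalization, which serves to compare samples for one gene, and levels are compared between genes in TPM, which are divided by transcript length.

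The samples carried the markers of PV+ interneurons, but not to the same degree. The 12 PV+ interneuron markers summed to 6502, 4659, 5569 and 7329 TPM in CNO 1 to 4 and to 2329, 5528, 5717 and 5453 TPM in VEH 1 to 4, with Cplx1, which codes for a regulator of synaptic vesicle release, the most abundant. VEH 1 stood apart, with less than all other samples. Cplx1 averaged 2470 TPM over the 8 samples, and the list also holds Gad1, Gad2 and Slc32a1, which other inhibitory interneurons express too. The sum is therefore not specific to PV+ interneurons. Pvalb itself was at 1022, 819.7, 977 and 1160 TPM with CNO and at 300.1, 988, 1050 and 943 TPM with vehicle. The 12 pyramidal cell markers, led by the vesicular glutamate transporter Slc17a7, summed to 720.1, 914, 813 and 670.0 TPM with CNO and to 1052, 901, 853 and 924 TPM with vehicle, so that mRNA of pyramidal cells was present in every sample. No marker of any list was at 0 in all samples. A marker index, the mean log2 CPM of the PV+ markers minus that of 11 pyramidal markers (Rorb left out because it is a clock gene too), was 2.47, 1.74, 2.23 and 2.88 in CNO 1 to 4 and 0.60, 1.89, 2.24 and 2.11 in VEH 1 to 4. In such bulk samples fewer cells of a type and less RNA per cell cannot be told apart.

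In the loop, ARNTL (also called BMAL1) pairs with CLOCK on E-boxes and switches on the Per and Cry genes, whose proteins return to the nucleus and block the pair. The same pair drives Nr1d1 and Nr1d2, which code for the nuclear receptors REV-ERB alpha and beta, and these repress Arntl through ROR elements, where the ROR receptors activate. DBP, an output of the loop, binds D-boxes, for example in Per genes. In many cells Per1 can also be induced within the hour by stimuli that act through CREB.

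Stretches with letters that match these elements in start-site regions of the clock genes are shown, since the loop described above works through such elements. Windows from 250 bases before to 50 after the annotated start were taken from RefSeq (GRCm38.p6) and matched for 9 of the 10 genes, Per2 having no match. For Cry2 and Nr1d1 the bases after the start of the window were not found in an annotated transcript of the gene, so that their windows may not sit at the start used in these annotations. The letters searched, on both strands, were CACGTG (E-box), TTATGTAA or TTACGTAA (D-box), AANT followed directly by AGGTCA (ROR element) and TGACGTCA (CREB element), none of which contains another. An E-box was found for Per1 and Cry1 (2 of 9, and 8.09% of the 27025 genes with a window), a D-box for Per3 (1 of 9, and 1.23%), a ROR element for Arntl (1 of 9, and 0.259%) and the CREB element for none of the 9 (2.03%). A match is a description of the sequence and no evidence that a factor was bound. In the lines that follow, capitals mark the matched letters. The Per1 stretch, chr11:69098743-69098828 on the plus strand, lies in an intron of Per1 as annotated and before the start site of one of its 2 windows, and its E-box begins 166 bases before that start. The Cry1 stretch, chr10:85185069-85185154 on the minus strand, lies outside the annotated gene, with the E-box 60 bases before the start. The Per3 stretch, chr4:151044786-151044900 on the minus strand, also lies outside the gene, with D-boxes 205 and 158 bases before the start. The Arntl stretch, chr7:113207528-113207557 on the plus strand, overlaps an Arntl exon, with the element beginning at base 28 after the start.
Per1: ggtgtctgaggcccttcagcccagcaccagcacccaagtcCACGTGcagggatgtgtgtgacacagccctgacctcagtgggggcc
Cry1: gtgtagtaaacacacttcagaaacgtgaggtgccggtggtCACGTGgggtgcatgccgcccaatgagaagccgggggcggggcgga
Per3: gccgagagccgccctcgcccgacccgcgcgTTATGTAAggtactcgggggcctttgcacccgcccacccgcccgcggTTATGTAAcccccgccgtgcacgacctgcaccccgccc
Arntl: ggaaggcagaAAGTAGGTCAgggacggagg

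All 10 clock genes were expressed in the ribosome-associated mRNA, over a 10.3-fold range of mean TPM. Cry2 was the highest with 121 ± 12.2 TPM (SD, n = 8 samples), followed by Nr1d2 with 102 ± 15.5 and Dbp with 89.8 ± 7.77 TPM. Nr1d1 was at 64.4 ± 7.82, Arntl at 38.2 ± 7.18 and Clock at 27.6 ± 4.68 TPM. Thus the repressor Cry2, the receptors and the output gene Dbp all stood above both activators. No series over the day was sampled and the time of dissection is not given, so these levels hold only for the times sampled. The lowest were Cry1 with 19.5 ± 2.03, Per3 with 19.2 ± 5.17, Per2 with 16.9 ± 3.04 and Per1 with 11.8 ± 2.23 TPM. Neighbours in this order were not always apart. Cry2 exceeded Nr1d2, and Nr1d2 exceeded Dbp, in 6 of 8 samples, Cry1 exceeded Per3 in 4 of 8 and Per3 exceeded Per2 in 5 of 8, whereas every other neighbour kept its place in 8 of 8 samples. Some of these levels are uncertain, because the library kit does not mark strand. Exons of Nr1d1 overlap those of Thra, exons of Dbp those of Sphk2, exons of Cry2 those of D930015M05Rik and exons of Arntl those of Gm45355, each on the opposite strand, and 7.85% of the 31-base stretches of Nr1d1 transcripts, 16.9% of those of Dbp and 9.51% of those of Nr1d2 also occur in transcripts of other genes.

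**Figure D1:**
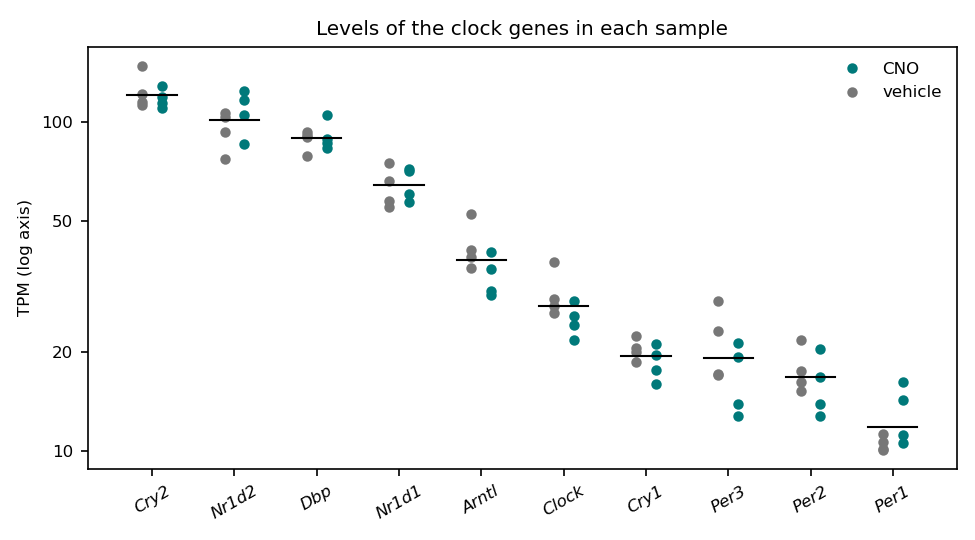
Level of each clock gene in TPM, on a log axis, with 1 point per sample (grey, vehicle, and teal, CNO) and a black line at the mean of the 8 samples. Cry2 is highest at 121 TPM and Per1 lowest at 11.8 TPM, and the points of CNO and vehicle samples overlap for every gene.

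The main comparison asked which clock genes differed in translating PV+ interneurons after the activity increase. Of the 10 clock genes, 5 were higher and 5 lower with CNO, by log2 fold changes between -0.23 (Arntl) and 0.31 (Per1), with a median of -0.0040 against 0.0014 over all 17495 genes tested. None was called at an adjusted p under 0.05 by edgeR's quasi-likelihood test, where the background was 0% of all genes. Per1 alone had an unadjusted p under 0.05, a share of 1 in 10 against 4.09% of all genes (1.44% were higher and 2.65% lower), and no clock gene had groups that did not overlap, which 2.42% of all genes had. The robust likelihood ratio test and DESeq2, which called 0.0857% and 0.0629% of all genes, called no clock gene either. For 9 of the 10 genes the 95% interval of the change lay within 1.5-fold in either direction, as it did for 59.0% of all genes, and Nr1d2 was the exception. Without a series over the day, a change in the phase or amplitude of the clock was not tested.

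**Figure D2:**
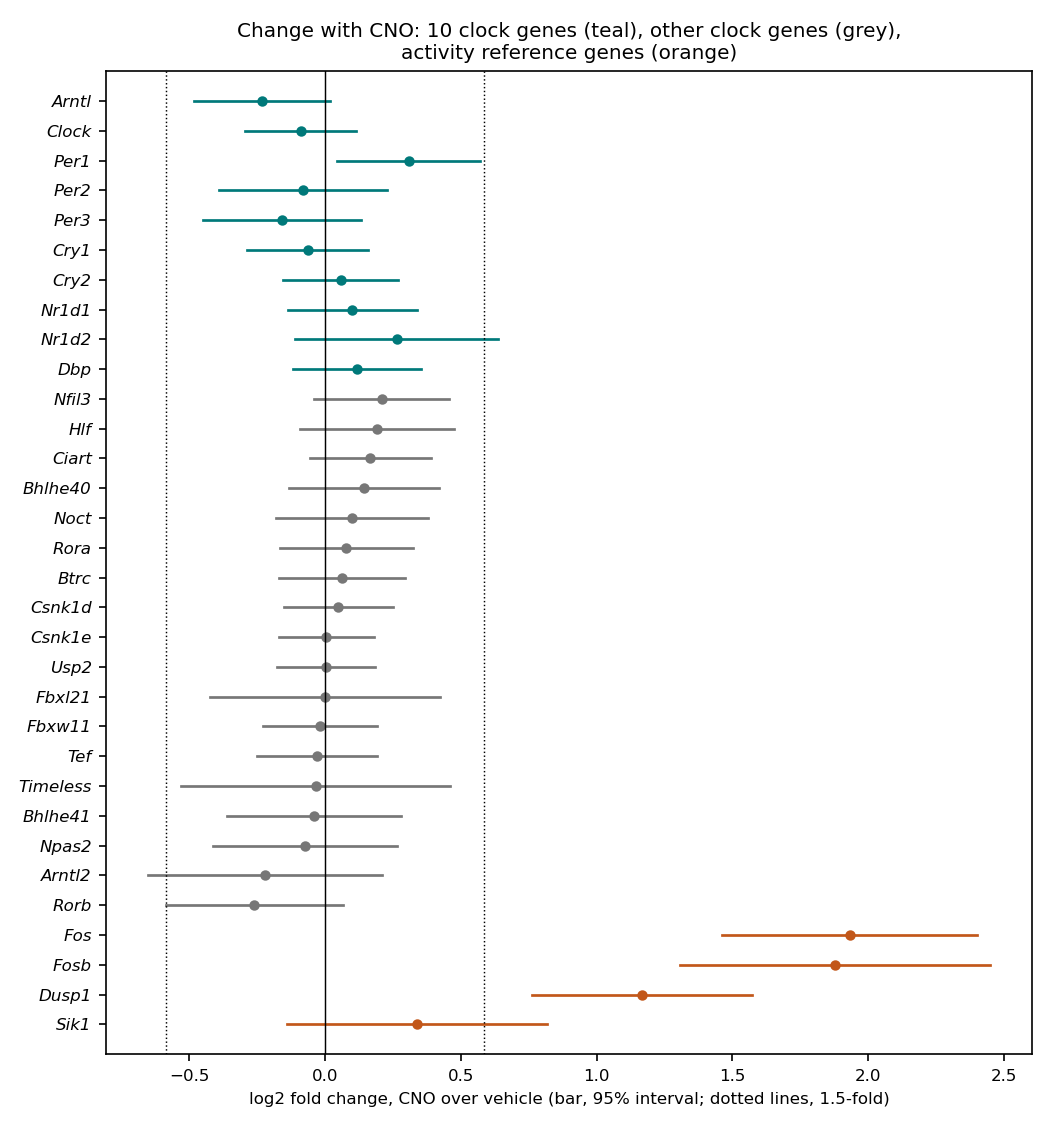
Log2 fold change of CNO over vehicle (point) with its 95% interval (bar) for the 10 clock genes (teal), 18 other clock genes (grey) and 4 of the 6 activity reference genes (orange), and dotted lines at 1.5-fold. The clock genes lie between -0.23 and 0.31, whereas Fos and Fosb lie at 1.93 and 1.88.

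The activity reference genes are given from the same libraries. They were chosen with earlier results of these data known, and the study names Fos, Fosb and Fosl2 among its upregulated genes. Their changes are therefore no independent measure of what these libraries could detect. Fos, which codes for a transcription factor made within minutes of strong activity, was at 32.2, 54.4, 40.3 and 69.5 CPM in CNO 1 to 4 and at 12.5, 15.8, 11.3 and 11.8 CPM in VEH 1 to 4. Every CNO sample exceeded every vehicle sample, with a log2 fold change of 1.93 (95% interval 1.46 to 2.40) and an adjusted p of 0.0520 by the quasi-likelihood test, just outside the threshold. Fosb, its relative, and Dusp1, a phosphatase that switches off MAP kinases, also had groups that did not overlap, with log2 fold changes of 1.88 (SE 0.26) and 1.17 (SE 0.18) and adjusted p values of 0.123 and 0.239 by the same test. On the same 8 samples all 3 genes were called by the robust likelihood ratio test (adjusted p of 6.2e-20, 1.3e-07 and 2.6e-07) and by DESeq2 (adjusted p of 6.1e-13, 9.0e-08 and 1.0e-05). Sik1, a kinase that holds back CREB signalling and is known to limit light-induced resetting of the clock, was at 7.14, 7.65, 8.44 and 14.6 CPM with CNO and at 6.44, 7.13, 8.00 and 8.35 CPM with vehicle, so that only CNO 4 stood out clearly. The remaining reference genes, Fosl2 (a Fos relative) and Crem (a CREB relative), had log2 fold changes of 0.69 (SE 0.18) and 0.23 (SE 0.11) and groups that did not overlap, but were called by no test run here (adjusted p = 0.817 for both by the quasi-likelihood test, and at lowest 0.245 and 0.473 over the alternatives). No pooled correlation of Per1 with Fos is given, since Fos separates the samples by group. Relative to the group means their r was 0.69 over the 8 samples, a description with no test, and CNO 2 and CNO 4 were the highest samples for both genes.

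The activators were slightly lower with CNO, within the error. Arntl, on chromosome 7 at 113207465 to 113314126 on the plus strand (GRCm38), was at 38.8, 48.4, 46.6 and 41.2 CPM with CNO and at 61.2, 50.6, 46.4 and 47.6 CPM with vehicle. The groups overlapped, since CNO 2 and CNO 3 fell within the range of the vehicle samples, and the highest value by far was that of VEH 1. Means were 43.8 ± 4.51 and 51.5 ± 6.70 CPM (SD, n = 4 each). The log2 fold change was -0.23 (SE 0.11, 95% interval -0.48 to 0.02), with an adjusted p of 0.817 by the quasi-likelihood test and p = 0.143 in a two-sided exact permutation test, for which the smallest p with 4 against 4 samples is 0.0286. Without VEH 1 the log2 fold change was -0.14. It was -0.28 both without CNO 2 and without VEH 3. The unadjusted p values there were 0.0390 and 0.0481, and the adjusted ones 0.473 and 0.691, by the quasi-likelihood test. Clock, on chromosome 5 at 76209868 to 76304792 on the minus strand, was at 71.3, 67.7, 70.3 and 67.8 CPM with CNO and at 79.4, 64.2, 71.9 and 79.4 CPM with vehicle. It was the evenest of the 10 genes within the CNO group, and its CNO samples all lay inside the vehicle range. Its log2 fold change was -0.09 (95% interval -0.29 to 0.11, adjusted p = 0.822 by the quasi-likelihood test). Npas2, which can stand in for Clock in the forebrain, gave -0.07 (SE 0.15).

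Among the Per genes, which code for the repressors of the pair, Per1 was the only clock gene whose interval left out no change. Per1 lies on chromosome 11 at 69095217 to 69109960 on the plus strand and was at 20.3, 24.8, 20.5 and 27.6 CPM with CNO and at 17.2, 18.2, 20.5 and 19.5 CPM with vehicle. CNO 2 and CNO 4 were above all vehicle samples, while CNO 1 and CNO 3 were within their range. Mean levels of 23.3 ± 3.54 and 18.8 ± 1.48 CPM (SD, n = 4 each) gave a 1.24-fold difference (95% interval 1.03 to 1.49). The unadjusted p was 0.0267, the p adjusted over all genes 0.817 by the quasi-likelihood test, and p = 0.0857 in the two-sided exact permutation test. The difference thus did not pass the test over all genes. CNO 4 was also the highest sample for Fos, Dusp1 and Sik1 and for the marker index. Without CNO 4 the log2 fold change of Per1 fell from 0.31 to 0.21, with an unadjusted p of 0.101, and without VEH 1 it was 0.26, with an unadjusted p of 0.0640. Those 0.21 were the lowest value with a sample left out. The highest was 0.37 without CNO 1, with an unadjusted p of 0.0159 and an adjusted p of 0.931 by the quasi-likelihood test.

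Per2, on chromosome 1 at 91415982 to 91459324 on the minus strand, was at 34.7, 50.8, 37.7 and 47.0 CPM with CNO and at 52.7, 41.5, 47.0 and 38.9 CPM with vehicle. Its values were scattered in both groups, with a log2 fold change of -0.08 (95% interval -0.39 to 0.23, adjusted p = 0.881 by the quasi-likelihood test). Per3, on chromosome 4 at 151003652 to 151044665 on the minus strand, was at 42.1, 42.8, 34.3 and 31.2 CPM with CNO and at 50.6, 40.6, 38.1 and 38.6 CPM with vehicle. CNO 3 and CNO 4 were below all vehicle samples and VEH 1 was above all others, with a log2 fold change of -0.16 (95% interval -0.45 to 0.13, adjusted p = 0.817 by the quasi-likelihood test). Without VEH 1 it was -0.06. The relation of Per1 with Per2 over the 8 samples depended on which samples entered. It was weak over all of them (Pearson's r = 0.20, exact permutation p = 0.626, adjusted p = 0.752 over 6 pairs, and Spearman's rho = 0.095, exact permutation p = 0.840), while r was -0.63 without CNO 2 and CNO 4, 0.62 without VEH 1 and 0.51 relative to the group means.

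The share of each Per gene in the summed Per TPM is given as a description with no test, since it was calculated after the values of Per1 and Per3 had been seen in the same samples. The Per1 share was 24.8%, 25.5%, 28.6% and 35.4% in CNO 1 to 4 and 16.8%, 20.4%, 24.5% and 24.7% in VEH 1 to 4. No CNO sample was as low as any vehicle sample, although CNO 1 and VEH 4 nearly touched. The means were 28.6% ± 4.83 and 21.6% ± 3.75 (SD, n = 4 each). Without VEH 1 the vehicle mean was 23.2%, and without CNO 4 the CNO mean was 26.3%. The share also moved with the marker index (r = 0.84 over the 8 samples, and 0.34 without VEH 1 and CNO 4), and the part of cell composition in it was not tested. In the other families the groups overlapped. Cry2 made up 86.4% ± 0.715 of the Cry TPM with CNO and 85.8% ± 0.825 with vehicle, and Nr1d2 made up 62.2% ± 5.54 and 59.8% ± 6.92 of the Nr1d TPM.

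**Figure D3:**
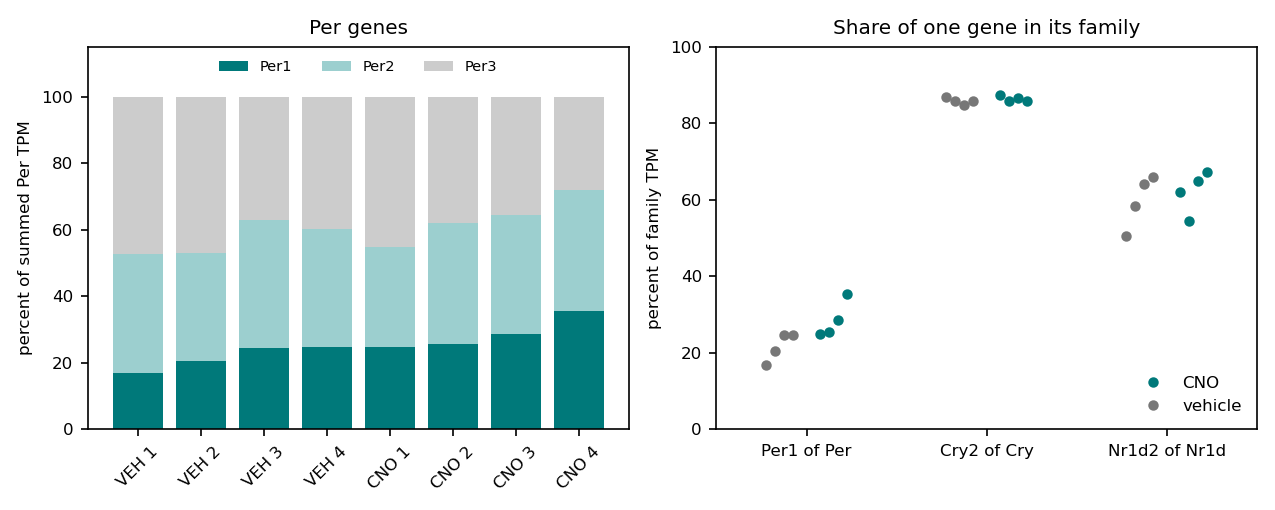
Left, share of Per1, Per2 and Per3 in their summed TPM in each sample, in percent. Right, share of Per1, Cry2 and Nr1d2 in their families, 1 point per sample (grey, vehicle, and teal, CNO). The Per1 share is 24.8% to 35.4% with CNO and 16.8% to 24.7% with vehicle, and the groups overlap for Cry2 and Nr1d2.

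The Cry genes, the other repressors of the pair, showed little spread. Cry1, on chromosome 10 at 85131700 to 85185064 on the minus strand, was at 21.7, 26.4, 23.9 and 27.5 CPM with CNO and at 27.1, 25.7, 27.5 and 23.8 CPM with vehicle. Cry2, on chromosome 2 at 92403646 to 92434043 on the minus strand, was at 171, 182, 181 and 201 CPM with CNO and at 191, 177, 178 and 162 CPM with vehicle. The groups overlapped for both genes. The log2 fold changes were -0.06 (95% interval -0.29 to 0.16, adjusted p = 0.868) for Cry1 and 0.06 (95% interval -0.16 to 0.27, adjusted p = 0.879) for Cry2 by the quasi-likelihood test, so that differences beyond about 1.5-fold lie outside both intervals.

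Nr1d2 had the largest spread within groups of the clock genes in log2 CPM. Lying on chromosome 14 at 18204054 to 18239127 on the minus strand, it was at 240.0, 163, 218 and 264 CPM with CNO and at 139, 182, 210 and 207 CPM with vehicle. CNO 1, CNO 3 and CNO 4 exceeded all vehicle samples, while CNO 2 was lower than all samples except VEH 1. Means of 221 ± 43.2 and 184 ± 32.7 CPM (SD, n = 4 each) gave a 1.20-fold difference with an interval from 0.925 to 1.56 (log2 fold change 0.26, SE 0.17), an adjusted p of 0.817 by the quasi-likelihood test and p = 0.257 in the exact permutation test. Leaving out CNO 2 separated the groups and gave a log2 fold change of 0.39 with an unadjusted p of 0.0294 and an adjusted p of 0.473 by the quasi-likelihood test, whereas leaving out VEH 1 gave 0.14. Nr1d1, on chromosome 11 at 98767932 to 98775333 on the minus strand, was at 82.6, 78.3, 68.2 and 74.4 CPM with CNO and at 80.6, 74.5, 67.0 and 61.1 CPM with vehicle. It did not follow Nr1d2 in its high and low samples, and its log2 fold change was 0.10 (95% interval -0.14 to 0.34, adjusted p = 0.822 by the quasi-likelihood test).

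Dbp, the output gene, lies on chromosome 7 at 45705088 to 45710203 on the plus strand and was at 76.0, 60.2, 58.9 and 66.3 CPM with CNO and at 59.8, 64.2, 63.9 and 53.2 CPM with vehicle. CNO 1 was the highest and VEH 4 the lowest sample, and the groups overlapped. The log2 fold change was 0.12 (95% interval -0.12 to 0.35, adjusted p = 0.817 by the quasi-likelihood test). As targets of the same pair, Dbp and Nr1d1 were compared over the 8 samples and gave r = 0.66 (exact permutation p = 0.0735, adjusted p = 0.220) and rho = 0.52 (exact permutation p = 0.197). Without CNO 1 and VEH 4 r was -0.17, so that the relation rested on those samples. Dbp and Arntl, which peak at opposite times of day in many tissues, gave r = -0.58 (exact permutation p = 0.117, adjusted p = 0.234) and rho = -0.52 (exact permutation p = 0.197). Their r was -0.55 without both CNO 1 and VEH 4, and -0.14 on the log2(TPM + 1) scale. With a sample left out it ranged from -0.73 (without VEH 4) to -0.27 (without CNO 1). Dbp and Per3 gave r = -0.03 (exact permutation p = 0.950, and rho = -0.05, exact permutation p = 0.935), and r = -0.49 without both CNO 1 and VEH 4. None of the relations of Dbp, nor that of Per1 with Per2, passed adjustment over the 6 pairs.

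**Figure D4:**
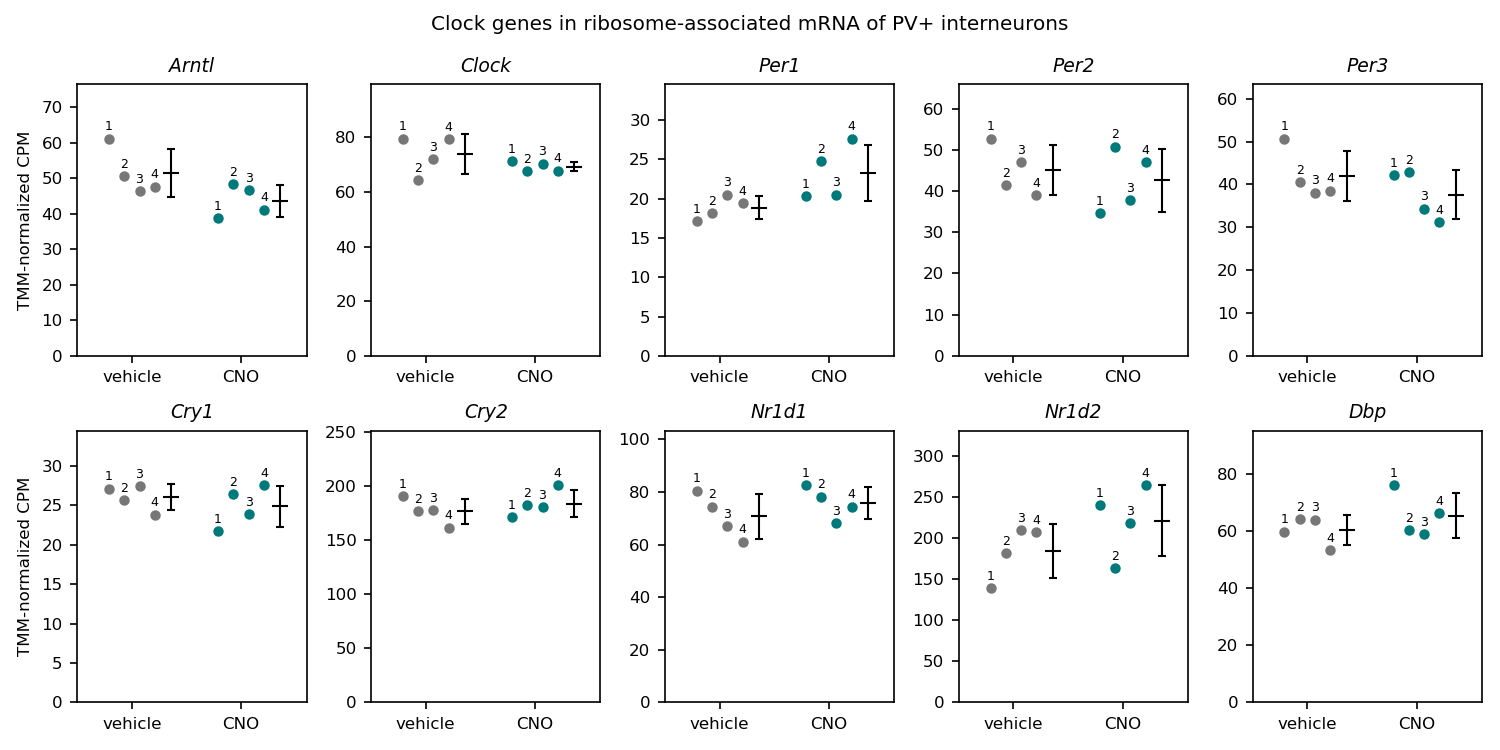
TMM-normalized CPM of the 10 clock genes in each sample (grey, vehicle, and teal, CNO, with the replicate number above each point), and mean with SD of the 4 samples of each group in black. The groups overlap for every gene, VEH 1 is the highest sample for Arntl and Per3 and the lowest for Nr1d2, and CNO 4 is the highest for Per1 and Nr1d2.

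The 18 other clock genes, a list of partners, paralogues and modifiers of the loop, gave the same picture. All 18 were tested, 10 were higher and 8 lower with CNO, 0 were called by the quasi-likelihood test (0% of all genes), 0 had an unadjusted p under 0.05 (4.09% of all genes) and 0 had groups that did not overlap (2.42%). The robust likelihood ratio test and DESeq2 also called 0 of them. Their median log2 fold change was 0.0037, between -0.26 (Rorb) and 0.21 (Nfil3), and 16 of 18 intervals lay within 1.5-fold. Rora and Rorb, whose receptors activate Arntl, gave 0.08 (SE 0.11) and -0.26 (SE 0.15), the latter being a marker of layer 4 pyramidal cells as well, and Rorb gave -0.12 without VEH 1 and -0.026 with the marker index as covariate. Of the transcription factors that bind D-boxes, the activators Tef and Hlf gave -0.03 (SE 0.10) and 0.19 (SE 0.13) and the repressor Nfil3 gave 0.21 (SE 0.11). Bhlhe40 and Bhlhe41, repressors that compete at E-boxes, gave 0.14 (SE 0.13) and -0.04 (SE 0.14), and Ciart, a repressor of the ARNTL and CLOCK pair, gave 0.17 (SE 0.10). Casein kinase 1 genes, whose products mark PER proteins for destruction, gave log2 fold changes of 0.05 (SE 0.09) for Csnk1d and 0.0041 (SE 0.08) for Csnk1e, both of which fell below 0 with scaling by library size only.

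The spread between samples of a group, which sets what could be seen, was small for most clock genes. The median SD within groups was 0.157 on the log2 scale for the 10 genes and 0.208 over the 15173 tested genes that averaged more than 1 TPM. It was lowest for Cry2 (0.10), Clock (0.11) and Cry1 (0.13), and highest for Per2 (0.23) and Nr1d2 (0.29). Of those genes 9.44% had a smaller spread than Cry2, and 71.5% had a smaller spread than Nr1d2.

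Sample-to-sample variation of Nr1d2, Arntl and Per3 ran with the marker index, in relations examined after the values were seen and adjusted over the 10 clock genes. Nr1d2 was higher where PV+ markers were stronger, with r = 0.96 (exact permutation p = 4.96e-05, adjusted p = 0.000496) and rho = 0.98 (exact permutation p = 0.000397, adjusted p = 0.00397). Arntl was lower, with r = -0.93 (exact permutation p = 0.00186, adjusted p = 0.00930) and rho = -0.95 (exact permutation p = 0.00114, adjusted p = 0.00570). Per3 was lower too, with r = -0.86 (exact permutation p = 0.00913, adjusted p = 0.0304) and rho = -0.74 (exact permutation p = 0.0458, adjusted p = 0.153). Without CNO 4 and VEH 1, the samples farthest from the median index, r was 0.99 for Nr1d2, -0.82 for Arntl and -0.32 for Per3, so that the relation of Per3 rested on those samples. After each value was taken relative to its group mean, r was 0.95, -0.91 and -0.83 in that order. The relations of Nr1d2 and Arntl thus also ran within the groups. As these values include CNO 4 and VEH 1, that of Per3 shows no relation apart from those samples. Such relations were not confined to clock genes, since 5.48% of 17472 genes had an r at least as high as Nr1d2, 1.22% one at least as low as Arntl and 5.27% one at least as low as Per3. For the other 7 clock genes no relation passed adjustment, and Per1 gave r = 0.63 (exact permutation p = 0.09995, adjusted p = 0.250, and rho = 0.57, exact permutation p = 0.151), or -0.34 without CNO 4 and VEH 1.

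**Figure D5:**
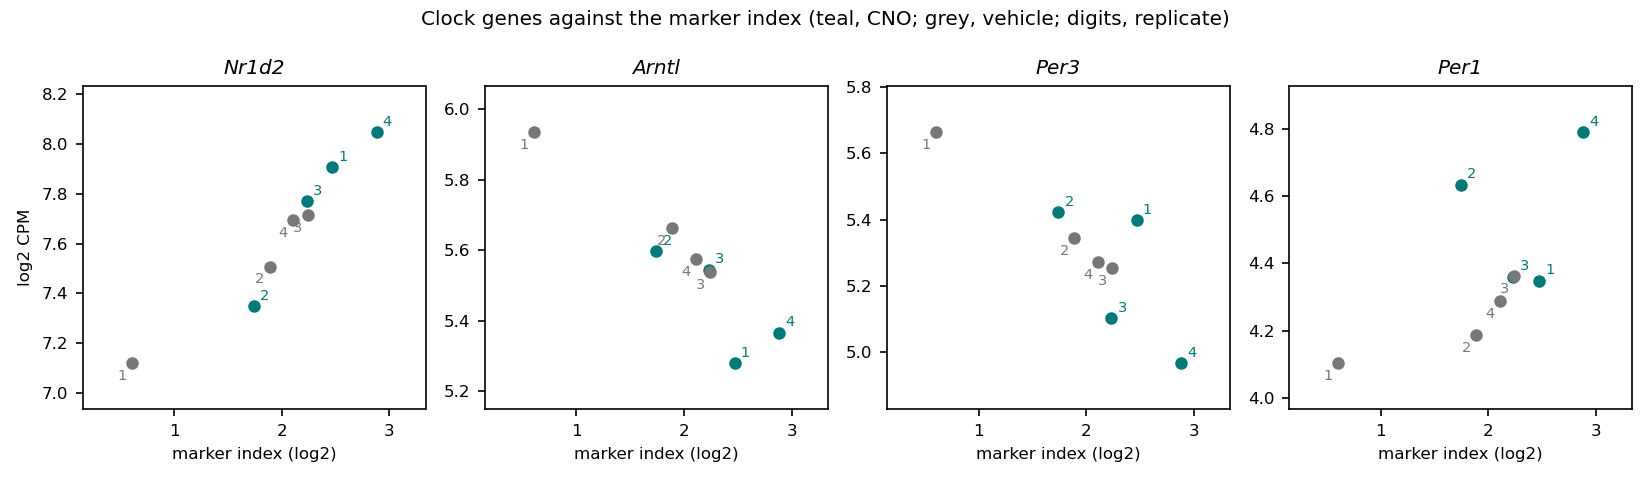
Log2 CPM of Nr1d2, Arntl, Per3 and Per1 against the marker index (log2 difference between PV+ and pyramidal marker levels), 1 point per sample (grey, vehicle, and teal, CNO, with replicate numbers). Nr1d2 climbs and Arntl falls along the index in both groups (r = 0.96 and -0.93), and VEH 1 lies at the far left with an index of 0.60.

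The mean index was 2.33 with CNO and 1.71 with vehicle, and VEH 1 carried most of this gap, since the vehicle mean without it was 2.08. Pvalb itself averaged 995 TPM with CNO and 820.2 TPM with vehicle, or 994 TPM without VEH 1. All 12 PV+ markers were higher with CNO in the fit (median log2 fold change 0.41), although 0 of them were called. The median difference of mean log2 CPM over these markers was 0.49 with all samples and 0.20 without VEH 1, where 11 of 12 remained higher. The 12 pyramidal markers were lower in 11 cases (median -0.13), the 8 oligodendrocyte markers in 8 (median -0.20) and the 8 microglia markers in 8 (median -0.26), with 0 called in each list. Of the other lists, 7 of 8 blood vessel markers were higher (median 0.26), and 5 of 8 astrocyte markers and 5 of 8 markers of other interneurons were lower (medians -0.09 and -0.10). By the difference of mean log2 CPM, 6 of 8 blood vessel markers were higher with all samples (median 0.17). Without VEH 1 they were split by the same measure, with 4 higher and 4 lower (median 0.03). The median difference of mean log2 CPM of the pyramidal markers was -0.07 without VEH 1 in place of -0.13. The glial lists changed less by this measure. Without VEH 1, 8 of 8 oligodendrocyte markers (median -0.18 in place of -0.21) and 7 of 8 microglia markers (median -0.20 in place of -0.26) remained lower. Of the astrocyte markers and the markers of other interneurons, 5 of 8 each were lower without VEH 1 (medians -0.02 and -0.09). With the index as a covariate the log2 fold change of Nr1d2 was -0.0059 (SE 0.08), that of Arntl -0.08 (SE 0.07), that of Per3 0.02 (SE 0.09) and that of Per1 0.23 (SE 0.12, unadjusted p = 0.0748). The part that cell composition or RNA content per cell had in these values was not tested.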

How the data were processed

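Ribosome-associated mRNA of 4 CNO and 4 VEH samples was analysed. According to the study's methods and the submitters' processing notes, reads were checked with FastQC, trimmed with Trim Galore, aligned with STAR to GRCm38 (mm10) and quantified with Salmon and tximport, with versions not given in the sources used here. The authors deposited estimated counts per gene without normalization or filter, and the authors also deposited TPM, which are length-scaled and sum to the same total in each sample. The libraries came from a kit that does not mark strand.

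The estimated counts, after rounding to whole numbers, entered edgeR 4.0.16 (R 4.3.3). A gene was left out if 4 or more of the 8 samples had under 10 counts, which kept 17495 genes. After TMM normalization the CNO and VEH groups were compared with the quasi-likelihood test, and p-values were adjusted over all genes (Benjamini-Hochberg, threshold 0.05). Log2 values of single samples used a prior count of 2. Single values were compared by exact permutation over 70 assignments, and correlations over 40320 orders. Alternatives were the robust dispersion with a likelihood ratio test (the dispersion named in the study's methods), DESeq2 1.42.0, other scalings and filters, limma 3.58.1 on log2 TPM with 1 or 0.1 added, a replicate block, the marker index or 1 surrogate variable (sva 3.50.0) as covariate, and each sample left out in turn. The tests were tested on simulated data, and no outcome of that is reported here. Figures were made in matplotlib 3.10.9 (Python 3.11.15). Positions came from GENCODE mouse release M21.

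The clock genes and all gene lists were chosen with earlier results of these data known. Named were the 10 clock genes, 9 of the 18 other clock genes and any of that list with an unadjusted p under 0.05, 4 activity reference genes and the leading markers. Some other genes of the pathway are not reported here. Csnk1d, Csnk1e, Fosl2, Crem and the clock genes named only for a change of sign were named after their values were seen. The paralogue shares and the relations with the marker index were also chosen after the values were seen. The exception was the relation of Dbp with the index, which was among the 6 pairs fixed for correlation. P-values measure the spread between pooled samples, which the labels number 1 to 4 without giving a batch or a pairing.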

Additional observations from a re-analysis of the deposited data

Results flagged for a closer look

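Among 48 groups of 4 values examined, a single sample lay far from the other 3 in 2, where chance gives about 2.4. In VEH 4 Tef, the D-box activator, was at 7.98 log2 CPM, below the other vehicle samples, which lay between 8.11 and 8.12. In CNO 4 Dusp1 was at 7.16 log2 CPM, above the other CNO samples, which lay between 6.51 and 6.59. None of the 10 clock genes had such a sample.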

How the results depend on the processing

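The 10 clock genes were called by no alternative (lowest adjusted p 0.473), and 191 of their 200 fold changes under alternatives kept their direction. All genes called numbered 0 in the main analysis, 15 with the likelihood ratio test, 11 with DESeq2, 4 without a filter on counts, 1 with at least 10 counts in all 8 samples, 3 with 1 surrogate variable, and 0 to 2 with a sample left out. Clock genes with an unadjusted p under 0.05 numbered 1 (Per1), 0 with limma on TPM (either pseudocount), the marker index or the surrogate variable, and 0 to 2 with a sample left out. Scaling by library size only, the 1 gene was Arntl (p 0.0373 by the quasi-likelihood test) and not Per1 (p 0.0580). Clock genes without overlap numbered 0 to 1 with a sample left out (Nr1d2 without CNO 2, Clock without VEH 2, Per1 without VEH 3), and overlap was not recounted where only the test or a covariate changed. The median log2 fold change of the clock genes was -0.0040, -0.10 and -0.10 with limma on TPM (pseudocounts 1 and 0.1), and -0.04 to 0.05 with a sample left out.

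Among the genes with alternatives recomputed throughout, log2 fold changes that changed sign with the marker index as covariate were those of Per2 (0.028), Per3 (0.016), Nr1d2 (-0.0059), Npas2 (0.062), Rora (-0.063) and Bhlhe41 (0.18). With the surrogate variable they were 0.0053 for Per2, 0.0069 for Per3, 0.055 for Npas2, -0.040 for Rora and 0.16 for Bhlhe41. Of the remaining clock genes, Csnk1d, Arntl2, Fbxl21, Btrc, Noct and Timeless also changed sign with the index, and all of these but Arntl2 with the surrogate variable. Csnk1d gave -0.017 and -0.0041 in that order, and with scaling by library size only Csnk1d and Csnk1e gave -0.0058 and -0.049, and Usp2 also turned. On the TPM scale, with pseudocounts of 1 and 0.1, Cry2 gave -0.067 and -0.068 and Rora -0.042 and -0.043, and with the likelihood ratio test Bhlhe41 gave 0.020. With a sample left out Per2 ranged from -0.18 to 0.0056, Npas2 from -0.17 to 0.031, Tef from -0.090 to 0.012 and Bhlhe41 from -0.13 to 0.11. The r of Dbp with Per3 was 0.45 on the TPM scale and -0.26 to 0.16 with a sample left out. That of Dbp with the marker index was 0.38 in the main analysis (exact permutation p = 0.331, adjusted p = 0.497 over the 6 pairs) and -0.11 on the TPM scale. The Per1 share differed by 4.72 to 8.25 percentage points and the Nr1d2 share by -0.717 to 4.90 with a sample left out. Except where a sample was left out, the cause was not tested.

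The replicate numbers mark no stated pairing, and same-numbered samples deviated together with correlations of 0.03, -0.03, 0.16 and 0.24, so the numbers were not taken to pair the samples. With a replicate block, 0 genes and 0 clock genes were called and Per1 gave a log2 fold change of 0.30. Whether a large change was called depended on the test and the filter, since Fos, at 3.82-fold, had an adjusted p of 0.0520 by the quasi-likelihood test but 6.2e-20 by the likelihood ratio test, 6.1e-13 by DESeq2 and 0.0015 by the quasi-likelihood test without a filter, so that the size of a change is limited by the intervals and not by the absence of calls.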
